A study of Mus musculus with 12 samples.

Results

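Macrophages bind antibody-coated particles through receptors for the constant (Fc) part of IgG, and the messages of these receptors were followed here in cultured mouse macrophages. The set holds *Fcgr1*, *Fcgr2b*, *Fcgr3* and *Fcgr4*, which encode the mouse Fcγ receptors. It also holds *Fcer1g*, for the signalling chain that the activating ones among them share, and *Fcgrt*, for the heavy chain of the neonatal Fc receptor. Members were taken by gene symbol, and each symbol matched 1 row, so that 6 of the 48526 genes in the count table are described. All 6 passed the filter on low counts, at least 10 counts in at least 3 libraries, which left 12421 genes for testing.

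RNA was sequenced from bone marrow-derived macrophages (BMDMs), which were grown from the marrow of female C57Bl/6J mice with 10 ng/mL mCSF and used on day 7. BMDMs of each of 3 mice were left untreated or were exposed for 16 hr to 100 ng/mL Wnt3a, to 100 pg/mL IL-4, or to Wnt3a and IL-4 together, which gave 12 samples in 4 groups of 3. All groups thus share the strain, the sex and the growth factor, and each mouse gave 1 culture per group, so p-values measure the spread between single cultures of different mice. The comparisons ask how each stimulus changed the receptors, and whether IL-4 acted differently in the presence of Wnt3a, the question behind the design of the study.

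For any 1 mouse, the columns labelled Wnt3a and Wnt3a+IL-4 hold some of the same reads. No gene of the 48526 had fewer counts in the first column than in the second, or more than 2 times as many, whereas 6681 to 8625 genes broke these limits when the columns came from different mice. Each pair of columns was therefore resolved into 2 libraries. Subtracting the second column from the first gives the difference, and doubling the second column and subtracting the first gives the remainder. Either part comes from Wnt3a-treated cells, but the labels do not tell which of them also received IL-4. Results that need this knowledge are given for both, first with the remainder as Wnt3a+IL-4 (the first assignment), then with the difference as Wnt3a+IL-4 (the other assignment), and no value was used to choose. Untreated and IL-4 libraries held 13342492 to 17113982 counts and the parts 14171994 to 17453377, and each member had at least 657 counts in every library. The macrophage label held, since all 6 macrophage markers examined, among them *Adgre1* and *Csf1r*, passed the filter and summed to between 9217 and 11080 CPM per library. CPM here is the count relative to the size of its library after TMM scaling, which adjusts for differences in composition. Scaling by total count alone shifted the median log2 change of all genes by -0.11 in the remainder against untreated cells and by less in the other comparisons. It also turned the called genes from 1462 higher and 1422 lower to 1131 and 2238 in the difference, from 1687 and 1450 to 1293 and 2342 in the remainder, and from 287 and 135 to 247 and 212 with IL-4.

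Fcγ receptors differ in what they do with bound IgG. FcγRI, FcγRIII and FcγRIV pair with the common γ chain, whose tyrosine motif is phosphorylated by Src family kinases and recruits the kinase Syk, and this drives phagocytosis, the oxidative burst and cytokine release. FcγRIIB carries an inhibitory motif in its own tail that recruits phosphatases such as SHIP1, so the balance between activating and inhibitory receptors sets how strongly a macrophage answers immune complexes. The neonatal Fc receptor works inside the cell, where it binds IgG and albumin in acidic endosomes together with β2-microglobulin and returns them to the surface.

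*Fcgr2b* and *Fcgr3* are close relatives, and the sequence they share is shown because the separation of their counts rests on it. On the mm10 mouse genome *Fcgr2b* (ENSMUSG00000026656, chr1:170958617-170976547), *Fcgr4* (ENSMUSG00000059089, chr1:171018920-171029761), *Fcgr3* (ENSMUSG00000059498, chr1:171051174-171064935) and *Fcer1g* (ENSMUSG00000058715, chr1:171229572-171234365) lie within 275.75 kb of chromosome 1, *Fcgr4* on the forward and the other 3 on the reverse strand. *Fcgr1* (ENSMUSG00000015947, chr3:96282909-96293969) and *Fcgrt* (ENSMUSG00000003420, chr7:45092990-45103851) lie elsewhere, both on the reverse strand. The longest identical run between the coding sequences of *Fcgr2b* and *Fcgr3* measured 129 bases. It is printed with 30 bases on either side, with capitals at the 5 positions where the genes differ.
Fcgr2b, 189 coding bases of 2 exons within chr1:170966644-170968111, reverse strand: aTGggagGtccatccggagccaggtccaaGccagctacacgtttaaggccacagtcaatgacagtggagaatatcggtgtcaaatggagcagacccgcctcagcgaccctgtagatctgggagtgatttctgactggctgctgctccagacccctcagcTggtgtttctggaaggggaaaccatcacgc
Fcgr3, 189 coding bases of 2 exons within chr1:171054137-171057822, reverse strand: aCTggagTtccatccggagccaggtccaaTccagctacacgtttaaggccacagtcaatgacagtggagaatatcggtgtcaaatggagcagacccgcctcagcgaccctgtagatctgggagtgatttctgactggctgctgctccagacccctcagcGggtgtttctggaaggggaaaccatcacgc
Of all 50-base stretches of *Fcgr2b* transcripts, 6.95% also occur in another gene, with 2.92% in *Fcgr3*, and of those of *Fcgr3*, 9.58% occur in *Fcgr2b*. The length of the reads and the handling of reads that match both genes are not given in the sources used here, and these shares do not bound the uncertainty of *Fcgr2b*, because untreated libraries held 10292 to 11037 counts of *Fcgr3* and only 657 to 946 of *Fcgr2b*. In addition, 2.68% of the exon bases of *Fcgr2b* overlap *Gm38204* on the other strand, and the sources used here do not say whether strand was used in counting. No such stretch or overlap was found for the other 4 members.

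The 250 bases before each RefSeq start were searched on both strands for the STAT motif TTCNNNGAA, the STAT6-type motif with 1 base more between TTC and GAA, the TCF/LEF core CTTTGA and the PU.1 core GAGGAA. *Fcgr1* is the only member with a TTCNNNGAA match, and 7.02% of 32851 promoters of this length hold one. It is shown (build GRCm38.p6, chr3:96293970-96294219, reverse strand) with this match and a PU.1 core in capitals.
Fcgr1, 250 bases upstream: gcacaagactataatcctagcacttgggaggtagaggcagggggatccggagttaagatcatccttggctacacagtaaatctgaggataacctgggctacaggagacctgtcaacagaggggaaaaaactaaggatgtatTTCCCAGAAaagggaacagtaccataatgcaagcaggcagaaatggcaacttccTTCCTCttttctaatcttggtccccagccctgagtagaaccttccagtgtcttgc
The match to TTCNNNGAA begins 109 bases and the PU.1 core 55 bases before the start. A PU.1 core was also found before *Fcgr3* and *Fcgr4*, and 23.3% of all windows hold one. No member had the STAT6-type motif or CTTTGA, which 5.85% and 13.8% of all windows hold. These matches describe letters only, and binding was not measured.

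The inhibitory receptor *Fcgr2b* had the largest log2 fold changes of the 6 genes against untreated cells, and rose in every stimulated group. It had 50.8, 42.3 and 43.3 CPM in the untreated cells of mouse 1, 2 and 3, and 145.8, 130.2 and 132.0 CPM with IL-4. In the difference it had 213.4, 219.8 and 213.2 CPM, and in the remainder 405.1, 471.4 and 371.1 CPM. The 4 groups did not overlap in any pair, and their order was the same in each mouse. IL-4 alone raised *Fcgr2b* by 1.58 on the log2 scale (SE 0.10, 2.99-fold, adjusted p = 7.03e-07, edgeR's quasi-likelihood test with Benjamini-Hochberg adjustment). The gene was 4.73-fold higher in the difference (log2 fold change 2.24, SE 0.10, edgeR adjusted p = 4.97e-09) and 9.13-fold higher in the remainder (3.19, SE 0.10, edgeR adjusted p = 1.19e-10) than in untreated cells. The remainder exceeded the difference by 0.95 on the log2 scale (95% interval 0.74 to 1.15, edgeR adjusted p = 4.60e-05) and IL-4 by 1.61 (edgeR adjusted p = 6.95e-08), and the difference exceeded IL-4 by 0.66 (edgeR adjusted p = 1.50e-04). With the columns as deposited, the Wnt3a+IL-4 column exceeded the Wnt3a column by 0.16 (edgeR adjusted p = 1), since reads are then counted in both.
As in any bulk sample, a change in the share of cells that carry a message and a change of the message per cell cannot be told apart. Markers of dendritic cells and B cells, which also carry FcγRIIB, were therefore followed. The summed level of 6 dendritic cell markers ran from 0.97 to 1.51 CPM in untreated cells, 1.79 to 1.92 with IL-4, 3.13 to 7.84 in the difference and 8.48 to 21.1 in the remainder, mostly through *Ccr7*, and *Zbtb46* reached 1.72 CPM at most. The sum of the B cell markers was lower in the remainder, at 8.26 to 9.66 CPM against 76.8 to 84.9 in untreated cells, through a single gene, *Ighm*, which averaged 77.1 CPM in untreated cells and 5.06 in the remainder. *Cd79b* averaged 3.65 CPM in untreated cells, 2.56 with IL-4, 3.25 in the difference and 3.51 in the remainder, *Cd79a* at most 0.17 in any group, and *Ms4a1* and *Pax5* had 3 or fewer counts in every library. The part of other cells in the *Fcgr2b* levels was not tested.

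*Fcgr1*, the high-affinity receptor, was higher in both parts and not with IL-4 alone. Untreated cells had 129.0, 124.1 and 135.6 CPM, and IL-4-treated cells 85.8, 118.2 and 96.0 CPM. The difference had 286.3, 271.5 and 260.6 CPM and the remainder 211.5, 189.3 and 190.4 CPM. Both parts stood above all untreated and IL-4 libraries without overlap, and the difference above the remainder. The rise over untreated cells was 2.10-fold in the difference (log2 fold change 1.07, SE 0.10, edgeR adjusted p = 3.45e-06) and 1.52-fold in the remainder (0.60, SE 0.10, edgeR adjusted p = 4.91e-04). *Fcgr1* thus ran opposite to *Fcgr2b* between the parts, with the remainder below the difference by -0.47 on the log2 scale (95% interval -0.69 to -0.25, edgeR adjusted p = 0.014). That call was lost without mouse 3 (-0.47, edgeR adjusted p = 0.32), without the difference of mouse 1 (-0.43, edgeR adjusted p = 0.064), without the remainder of mouse 3 (-0.44, edgeR adjusted p = 0.070) and with the columns as deposited (-0.079, edgeR adjusted p = 1). With IL-4 the log2 fold change was -0.37 (SE 0.10), lower in 3 of 3 mice but not called (edgeR adjusted p = 0.066). It was called without the IL-4 library of mouse 2 (-0.52, edgeR adjusted p = 0.012), without mouse 2 (-0.55, edgeR adjusted p = 0.017) and by DESeq2 (-0.37, adjusted p = 0.023).

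*Fcgr3* and *Fcgr4*, the low- and intermediate-affinity activating receptors, did not rise in either part. *Fcgr3* had 584.7, 709.9 and 645.5 CPM in untreated cells, 794.6, 833.7 and 740.9 with IL-4, 573.5, 558.9 and 600.2 in the difference and 633.7, 616.8 and 590.3 in the remainder. Its IL-4 libraries stood above all others, yet the log2 fold change of 0.29 over untreated cells was not called (95% interval 0.11 to 0.47, edgeR adjusted p = 0.084). Without the untreated library of mouse 2 it was called (0.35, edgeR adjusted p = 0.046), as it was by DESeq2 (0.29, adjusted p = 0.015). Against untreated cells *Fcgr3* was not called in the difference (-0.16, 95% interval -0.34 to 0.01) or the remainder (-0.08, 95% interval -0.25 to 0.10), but scaling by total count alone called it lower in both (-0.25 and -0.18, edgeR adjusted p = 0.011 and 0.049). Against IL-4 it was lower in the difference (-0.45, SE 0.08, edgeR adjusted p = 0.0011) and in the remainder (-0.36, SE 0.08, edgeR adjusted p = 0.0059), the latter not without mouse 2 or mouse 3 (edgeR adjusted p = 0.061 and 0.12).
*Fcgr4* had 82.2, 81.1 and 76.5 CPM in untreated cells, 69.3, 77.8 and 58.8 with IL-4, 61.7, 57.0 and 53.5 in the difference and 54.6, 47.8 and 51.3 in the remainder. Each library of either part lay below each untreated one. The gene fell by 0.48 on the log2 scale in the difference (SE 0.10, edgeR adjusted p = 0.0029) and by 0.64 in the remainder (SE 0.10, edgeR adjusted p = 2.57e-04). The parts themselves overlapped (-0.16, 95% interval -0.38 to 0.05, edgeR adjusted p = 0.40), and IL-4 alone gave -0.22 (95% interval -0.43 to -0.01, edgeR adjusted p = 0.32). Against IL-4 it was lower in the remainder (-0.42, edgeR adjusted p = 0.0074), but not without mouse 2 (-0.25, edgeR adjusted p = 0.15) or the IL-4 library of mouse 2 (-0.32, edgeR adjusted p = 0.052). The difference lay below IL-4 by -0.26 without a call (edgeR adjusted p = 0.087), and was called without the IL-4 library of mouse 3 (-0.34, edgeR adjusted p = 0.031) and by total count alone (-0.29, edgeR adjusted p = 0.048).
The summed level of 8 neutrophil markers, a cell type that also carries *Fcgr3* and *Fcgr4*, ran from 39.3 to 49.6 CPM in untreated cells, 51.5 to 61.3 with IL-4, 28.9 to 45.8 in the difference and 26.2 to 30.4 in the remainder, while *Ly6g* had 3 or fewer counts in every library. The sum was thus highest with IL-4, as *Fcgr3* was, whereas *Fcgr4* averaged 68.6 CPM with IL-4 and 80.0 in untreated cells. It was lowest in the remainder, as *Fcgr4* was, but the parts overlapped. *Fcgr3* averaged 577.5 CPM in the difference and 613.6 in the remainder. The part of neutrophils in the levels of both genes was not tested.

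*Fcer1g*, the γ chain that the activating receptors share, was the most abundant member, also per length, and had the smallest log2 fold changes against untreated cells. Its level was 1132.0, 1069.8 and 1066.4 CPM in untreated cells, 978.7, 1064.1 and 940.5 with IL-4, 1242.4, 1180.1 and 1202.7 in the difference and 1244.1, 1134.0 and 1040.8 in the remainder. All IL-4 libraries lay below and all difference libraries above the untreated ones, and the remainder overlapped them. No comparison with untreated cells was called (log2 fold change -0.13 for IL-4, 0.15 for the difference and 0.07 for the remainder, with 95% intervals reaching from -0.31 to 0.33). The only call was the difference against IL-4 (0.28, SE 0.08, edgeR adjusted p = 0.025), and it was lost without any 1 of the 3 mice and without any 1 of the difference libraries or the IL-4 libraries of mouse 1 or mouse 3 (0.24 to 0.36, edgeR adjusted p = 0.054 to 0.25). The remainder against IL-4 was not called (0.20, edgeR adjusted p = 0.11), except with the columns as deposited (0.23, edgeR adjusted p = 0.020).

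*Fcgrt* and its partner *B2m* moved in opposite directions in the Wnt3a-treated parts. *Fcgrt* had 110.0, 137.3 and 124.1 CPM in untreated cells, 148.4, 143.3 and 136.5 with IL-4, 61.2, 86.2 and 78.5 in the difference and 86.3, 76.1 and 72.3 in the remainder. No library of either part reached the lowest untreated or IL-4 library, and the parts overlapped each other. The gene fell by 0.72 on the log2 scale in the difference (SE 0.12, edgeR adjusted p = 5.14e-04) and by 0.66 in the remainder (SE 0.12, edgeR adjusted p = 8.16e-04), the latter not called without mouse 3 (-0.60, edgeR adjusted p = 0.062). With IL-4 the log2 fold change was 0.21 (95% interval -0.04 to 0.46, edgeR adjusted p = 0.47). *B2m* rose from 2817 ± 182 CPM (SD, n = 3) in untreated cells to 5268 ± 359 (SD, n = 3) in the difference (log2 fold change 0.90, SE 0.10, edgeR adjusted p = 1.94e-05) and 4929 ± 487 (SD, n = 3) in the remainder (0.81, SE 0.10, edgeR adjusted p = 4.47e-05). It had 3003 ± 291 CPM (SD, n = 3) with IL-4 (0.09, edgeR adjusted p = 0.77). *B2m* also serves MHC class I.

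**Figure D1:**
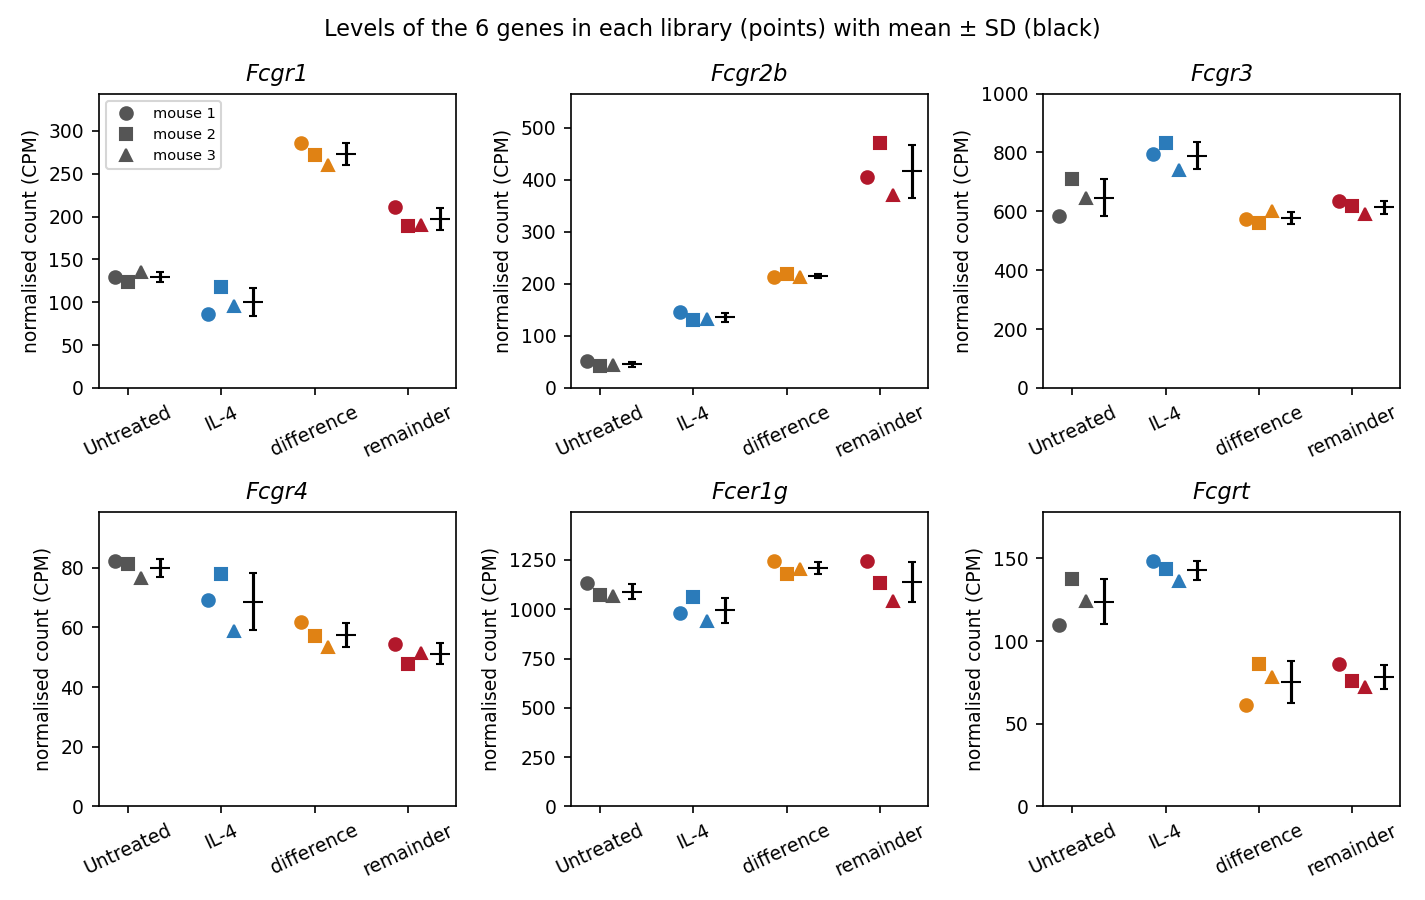
Each panel plots 1 gene, with the normalised count (CPM, from 0) on the vertical axis and the 4 groups on the horizontal axis; points are libraries, with a symbol per mouse, and black bars are the mean ± SD of 3 mice. *Fcgr2b* steps up from 42.3 to 50.8 CPM in untreated cells to between 371.1 and 471.4 in the remainder, *Fcgr1* peaks in the difference, and *Fcgrt* and *Fcgr4* sit lower in both parts than in untreated cells.

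Counted over the set, 1 of 6 members (*Fcgr2b*) was called with IL-4, where 3.40% of all tested genes were. In the difference 4 of 6 were called against untreated cells, *Fcgr1* and *Fcgr2b* higher and *Fcgr4* and *Fcgrt* lower, with 23.2% called among all genes, and the same 4 were called in the same directions in the remainder, with 25.3% called among all genes. These comparisons share the untreated libraries. Between the parts 2 of 6 were called (5.25% of all genes), *Fcgr2b* higher and *Fcgr1* lower in the remainder. Against IL-4, 5 of 6 were called in the remainder and 5 of 6 in the difference (20.3% of all genes in either). In both, *Fcgr1* and *Fcgr2b* were higher and *Fcgr3* and *Fcgrt* lower, with *Fcgr4* as the fifth (lower) in the remainder and *Fcer1g* (higher) in the difference. The median log2 fold change of the members was 0.04 with IL-4 and -0.01 in either part against untreated cells, against medians of -0.00, -0.01 and -0.02 over all genes. Groups did not overlap for 4 of 6 members with IL-4 (19.8% of all genes), 5 in the difference (39.2%) and 4 in the remainder (35.6%) against untreated cells. The count was 2 between the parts (22.4%), 5 for the remainder against IL-4 (35.9%) and 5 for the difference against IL-4 (38.6%).

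**Figure D2:**
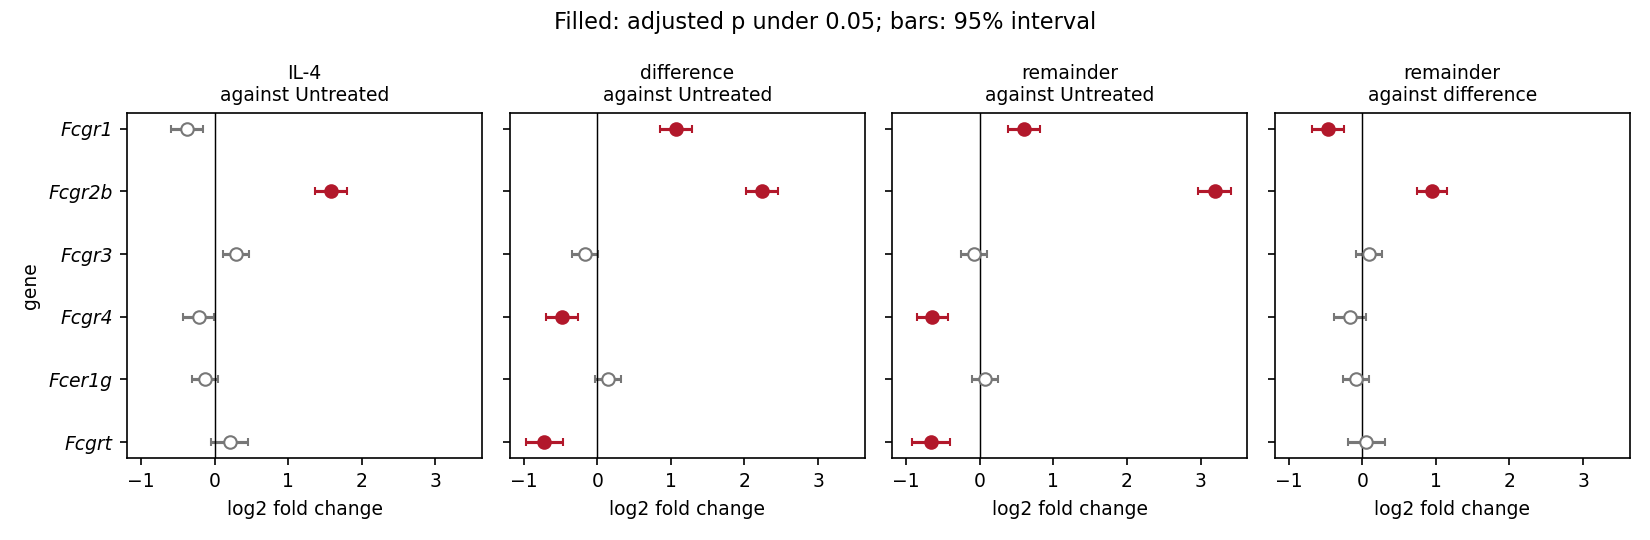
The log2 fold change of each member (horizontal axis, common to all panels) is drawn with its 95% interval for 3 comparisons with untreated cells and for the remainder against the difference, filled where the adjusted p was under 0.05. *Fcgr2b* is to the right of 0 in all 4 panels (1.58, 2.24, 3.19 and 0.95), while *Fcgr1* is to the right for both parts against untreated cells and to the left between the parts (-0.47).

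The make-up of the Fcγ receptor messages was compared per kilobase of exon, since only levels per length can be set side by side between genes. *Fcgr3* was the main species everywhere. It supplied 75.3 ± 2.14% (SD, n = 3) of the summed per-length level of the 4 receptors in untreated cells, 79.6 ± 0.80% with IL-4, 63.9 ± 1.66% in the difference and 65.2 ± 0.36% in the remainder. The *Fcgr2b* share was 1.91, 1.38 and 1.52% in the untreated cells of mouse 1, 2 and 3, 4.41, 3.69 and 4.27% with IL-4, 6.99, 7.44 and 7.00% in the difference and 12.5, 14.9 and 12.4% in the remainder. These shares kept the same order in every mouse. *Fcgr1* supplied 10.2 ± 0.96% in untreated cells, 6.75 ± 0.86% with IL-4, 20.2 ± 0.97% in the difference and 14.04 ± 0.63% in the remainder (SD, n = 3), and *Fcgr4* 12.9 ± 1.11%, 9.53 ± 0.69%, 8.77 ± 0.62% and 7.53 ± 0.51% (SD, n = 3).
The summed per-length level itself was 494 ± 33.97 CPM per kilobase in untreated cells, 572 ± 38.4 with IL-4, 521 ± 9.36 in the difference and 542 ± 21.4 in the remainder (SD, n = 3). All IL-4 libraries (534 to 610) lay above all untreated ones (461 to 529). The ratio of the 3 activating receptors to *Fcgr2b*, per length, was 62.6 ± 10.2 in untreated cells, 23.4 ± 2.39 with IL-4, 13.01 ± 0.49 in the difference and 6.61 ± 0.76 in the remainder (SD, n = 3). No test was applied to shares, ratios and summed levels. The size of the *Fcgr2b* share depends on the length used, because its annotated exons cover 5790 bases and its protein-coding transcripts average 1917. With the mean coding transcript length, chosen as an alternative after the data were seen, the share was 3.23% in untreated cells, 7.90% with IL-4, 14.02% in the difference and 23.9% in the remainder, in the same order. The ratio was then 30.6 in untreated cells, 11.7 with IL-4, 6.14 in the difference and 3.20 in the remainder. The summed level was then 740 ± 54.8 CPM per kilobase in untreated cells, 900 ± 54.8 with IL-4, 802 ± 14.4 in the difference and 906 ± 41.3 in the remainder (SD, n = 3). The order of *Fcgr1* and *Fcgr2b* also depends on the length. Per kilobase of exon *Fcgr1* had the larger mean share in all 4 groups, but with the transcript length it had the larger one only in untreated cells (6.79%), against 4.28% with IL-4, 13.1% in the difference and 8.41% in the remainder.

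**Figure D3:**
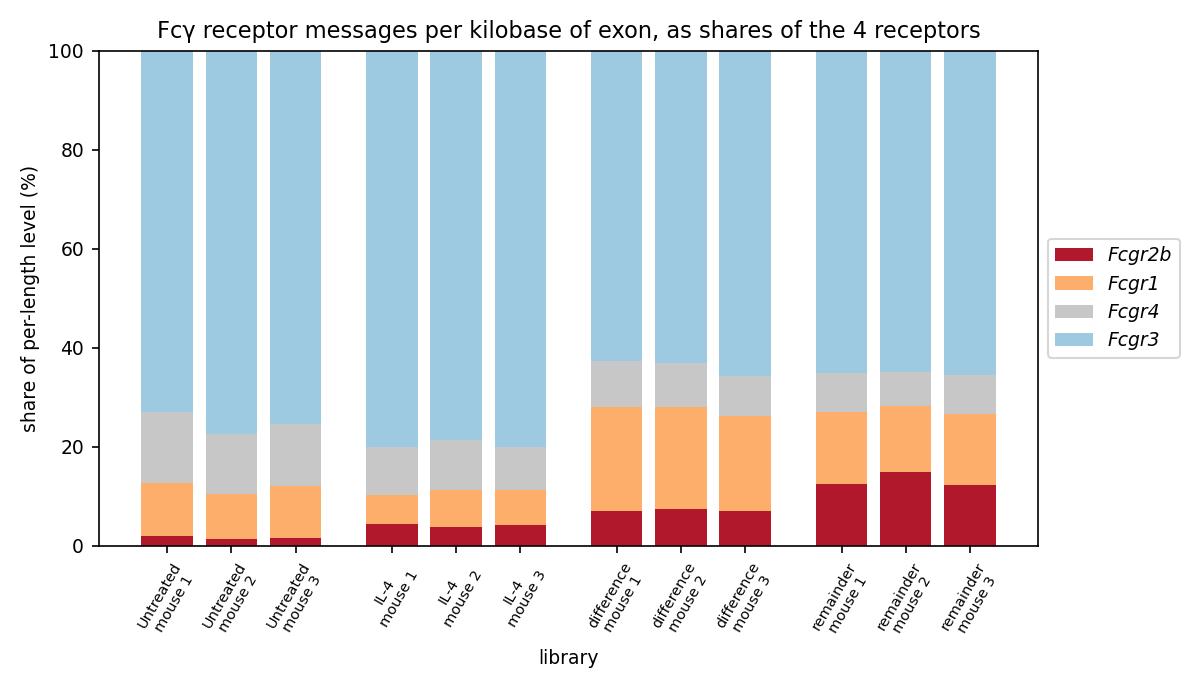
Stacked bars show, for each of the 12 libraries (horizontal axis), the share of each Fcγ receptor in their summed level per kilobase of exon (vertical axis, percent). The *Fcgr2b* segment at the bottom grows from between 1.38 and 1.91% in untreated cells to between 12.4 and 14.9% in the remainder, and *Fcgr3* makes up most of each bar.

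Whether IL-4 acted differently with Wnt3a was tested as an interaction, the effect of IL-4 with Wnt3a minus its effect without. With the first assignment 0 of 6 members were called by edgeR (0.105% of all genes, 13 genes), and 1 of 6, *Fcgr2b*, had an unadjusted p under 0.05, as did 1576 of the 12421 genes tested. DESeq2 called that 1 member and 165 genes in all. For *Fcgr2b*, IL-4 added 1.58 without and 0.95 with Wnt3a on the log2 scale, an interaction of -0.63 (SE 0.14, 95% interval -0.92 to -0.34, edgeR adjusted p = 0.12). It was called by DESeq2 (-0.64, adjusted p = 0.00438), without the remainder of mouse 2 (-0.71, edgeR adjusted p = 0.038), among all genes with at least 1 count (-0.62, edgeR adjusted p = 9.68e-04) and with the columns as deposited (-1.41, edgeR adjusted p = 8.39e-05). For *Fcgr1* the interaction was -0.10 (95% interval -0.40 to 0.21), and for the other 4 members it lay between -0.20 and 0.06.
With the other assignment 2 of 6 members were called (7.33% of all genes). An unadjusted p under 0.05 was found for 4 of 6, and for 2339 of the 12421 genes tested. The 0.95 by which *Fcgr2b* was higher in the remainder then counts against IL-4, and the interaction was -2.53 (SE 0.14, edgeR adjusted p = 5.03e-08). For *Fcgr1* the interaction was 0.84 (SE 0.14, edgeR adjusted p = 0.0018), and it was not called without mouse 3 (0.80, edgeR adjusted p = 0.14) or with the columns as deposited (0.46, edgeR adjusted p = 0.13). *Fcgr3* was not called (-0.38, edgeR adjusted p = 0.074), except by DESeq2 (-0.37, adjusted p = 0.026) and without the untreated library of mouse 2 (-0.44, edgeR adjusted p = 0.028). *Fcgr4* (0.38, 95% interval 0.08 to 0.69), *Fcer1g* (0.22, 95% interval -0.03 to 0.47) and *Fcgrt* (-0.26, 95% interval -0.62 to 0.10) were not called. On the log2 scale the value for *Fcgr2b* was negative in either assignment, but the main fit called it only with the other one. In CPM, IL-4 took its mean from 45.5 to 136.0 without Wnt3a. With the first assignment it went from 215.4 to 415.9 with Wnt3a, a larger step in CPM though a smaller one on the log2 scale.

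Genes that work with the receptors were followed through fixed lists, and the share called is set beside the same background as above. Of 34 tested activating signal transducers, the kinases, adaptors and lipid enzymes downstream of the γ chain, 2 rose and 2 fell with IL-4, 5 rose and 4 fell in the difference, and 5 rose and 11 fell in the remainder, or 11.8%, 26.5% and 47.1% called. The list's median log2 fold change was 0.02, 0.01 and -0.10. *Syk*, which docks on the phosphorylated γ chain, had 845 ± 55.1 CPM in untreated cells and 982 ± 50.6 in the difference (SD, n = 3), and its log2 fold changes, 0.22 there and 0.20 in the remainder, were not called (edgeR adjusted p = 0.069 and 0.095). In the difference it was called without the untreated library of mouse 2 (0.27, edgeR adjusted p = 0.048), without the remainder of mouse 2 (0.21, edgeR adjusted p = 0.048) and by DESeq2 (0.23, adjusted p = 0.023), and the columns as deposited called it in both Wnt3a-containing columns (0.20 and 0.19, edgeR adjusted p = 0.032 and 0.038). Among the Src family kinases that phosphorylate the receptor motifs, *Src* rose from 8.35 ± 1.05 CPM to 48.1 ± 7.18 in the difference and 53.7 ± 9.48 in the remainder (SD, n = 3), with log2 fold changes of 2.53 and 2.69 (edgeR adjusted p = 2.18e-07 and 9.03e-08). *Lyn* fell by 0.56 in the difference and by 1.06 in the remainder on that scale (edgeR adjusted p = 5.56e-05 and 1.13e-07). *Fyn* rose by 1.15 with IL-4 (edgeR adjusted p = 2.61e-05) and was higher in the remainder than in the difference by 1.28 (edgeR adjusted p = 9.70e-06). It had 46.3 ± 5.30 CPM in untreated cells, 103 ± 6.88 with IL-4, 37.2 ± 4.56 in the difference and 90.6 ± 6.89 in the remainder (SD, n = 3).

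Of 16 tested inhibitors of Fc receptor signalling, the phosphatases, docking proteins and ubiquitin ligases that end the signal, 2 rose and 1 fell with IL-4 (18.8% called), 0 rose and 3 fell in the difference (18.8%), and 0 rose and 5 fell in the remainder (31.2%), with medians of -0.05, -0.10 and -0.26. *Inpp5d*, which encodes the SHIP1 phosphatase that FcγRIIB recruits, had 501 ± 47.5 CPM in untreated cells and 412 ± 19.6 in the remainder (SD, n = 3). It was called lower there (-0.28, SE 0.08, edgeR adjusted p = 0.020), but not without mouse 2 (-0.17), mouse 3 (-0.28) or the untreated library of mouse 2 (-0.22), nor with only the groups compared (-0.28, edgeR adjusted p = 0.067 to 0.24 over these). In the difference it gave -0.22 (edgeR adjusted p = 0.063), and was called without mouse 1 (-0.29), without the untreated library of mouse 1 (-0.30), without the remainder of mouse 2 (-0.23), by total count alone (-0.31) and with the columns as deposited (-0.25, edgeR adjusted p = 0.0015 to 0.033 over these). *Ptpn6*, the SHP-1 phosphatase, was lower in the remainder (-0.39, SE 0.08, edgeR adjusted p = 0.0018), though not without mouse 2 (-0.28, edgeR adjusted p = 0.052) or mouse 3 (-0.40, edgeR adjusted p = 0.064). *Dok2* rose with IL-4 (0.94, edgeR adjusted p = 4.04e-05), *Inppl1* was lowest of the list in the difference (-0.63, edgeR adjusted p = 2.18e-04) and *Sla* in the remainder (-0.73, edgeR adjusted p = 3.45e-05).

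Of 36 tested genes of the phagocytic cup and the NADPH oxidase, 1 rose and 2 fell with IL-4 (8.33%), 7 rose and 8 fell in the difference (41.7%), and 4 rose and 8 fell in the remainder (33.3%), with medians of 0.05, 0.03 and -0.05. *Cybb*, the catalytic subunit of the oxidase, rose from 1547 ± 182 CPM to 3102 ± 197 in the difference (SD, n = 3), a log2 fold change of 1.00 (edgeR adjusted p = 1.62e-04). Its membrane partner *Cyba* had the largest called rise of the list in the remainder (0.62, edgeR adjusted p = 0.0023), lost without mouse 3 (0.61, edgeR adjusted p = 0.078). *Marcksl1*, a relative of the actin-binding protein MARCKS, was the lowest of the list in all 3 comparisons, at -0.82 with IL-4, -1.23 in the difference and -1.60 in the remainder (edgeR adjusted p = 1.27e-04, 4.47e-07 and 3.52e-08).
Of 8 receptors and adaptors that pair with the γ chain or resemble it, 5 were tested, and 0 rose and 2 fell with IL-4, 3 rose and 1 fell in the difference, and 2 rose and 0 fell in the remainder (40.0%, 80.0% and 40.0%). *Clec4e*, which encodes the glycolipid receptor Mincle and signals through *Fcer1g*, rose from 39.2 ± 10.5 CPM to 310 ± 34.8 in the difference and 265 ± 63.8 in the remainder (SD, n = 3), by 2.98 and 2.75 on the log2 scale (edgeR adjusted p = 8.26e-08 and 1.12e-07). *Clec4n*, the Dectin-2 gene, fell by 1.09 with IL-4 (edgeR adjusted p = 0.00126), a call lost without mouse 3 (-1.04, edgeR adjusted p = 0.069), but rose in the difference (1.54, edgeR adjusted p = 8.54e-06) and in the remainder (0.48, edgeR adjusted p = 0.041). Of 11 other Fc receptor genes only 4 were tested, while *Fcer1a*, *Ms4a2*, *Fcer2a*, *Fcrla*, *Fcamr*, *Fcmr* and *Pigr* had too few counts. Of these 4, 0 rose and 1 fell with IL-4 and in the difference, and 1 rose and 2 fell in the remainder. The lowest log2 fold change there was that of *Fcrl5* (-3.06, edgeR adjusted p = 0.0029), a gene with few counts, at 1.12 CPM on average in untreated cells and 0.13 in the remainder. *Fcrl1*, an Fc receptor-like gene best known from B cells, had 24.6 ± 2.17 CPM in untreated cells, 14.8 ± 0.56 with IL-4, 6.38 ± 0.96 in the difference and 3.30 ± 1.03 in the remainder (SD, n = 3). It was called lower in each (-0.74 with IL-4, edgeR adjusted p = 0.016, and -1.95 in the difference, edgeR adjusted p = 1.31e-06), the first not without mouse 2 or mouse 3, the untreated libraries of mouse 2 or mouse 3, or any 1 of the IL-4 libraries (-0.78 to -0.68, edgeR adjusted p = 0.051 to 0.12). Its order across the groups was that of *Ighm* given above and not that of *Cd79b*, and the part of B cells in it was not tested.

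**Figure D4:**
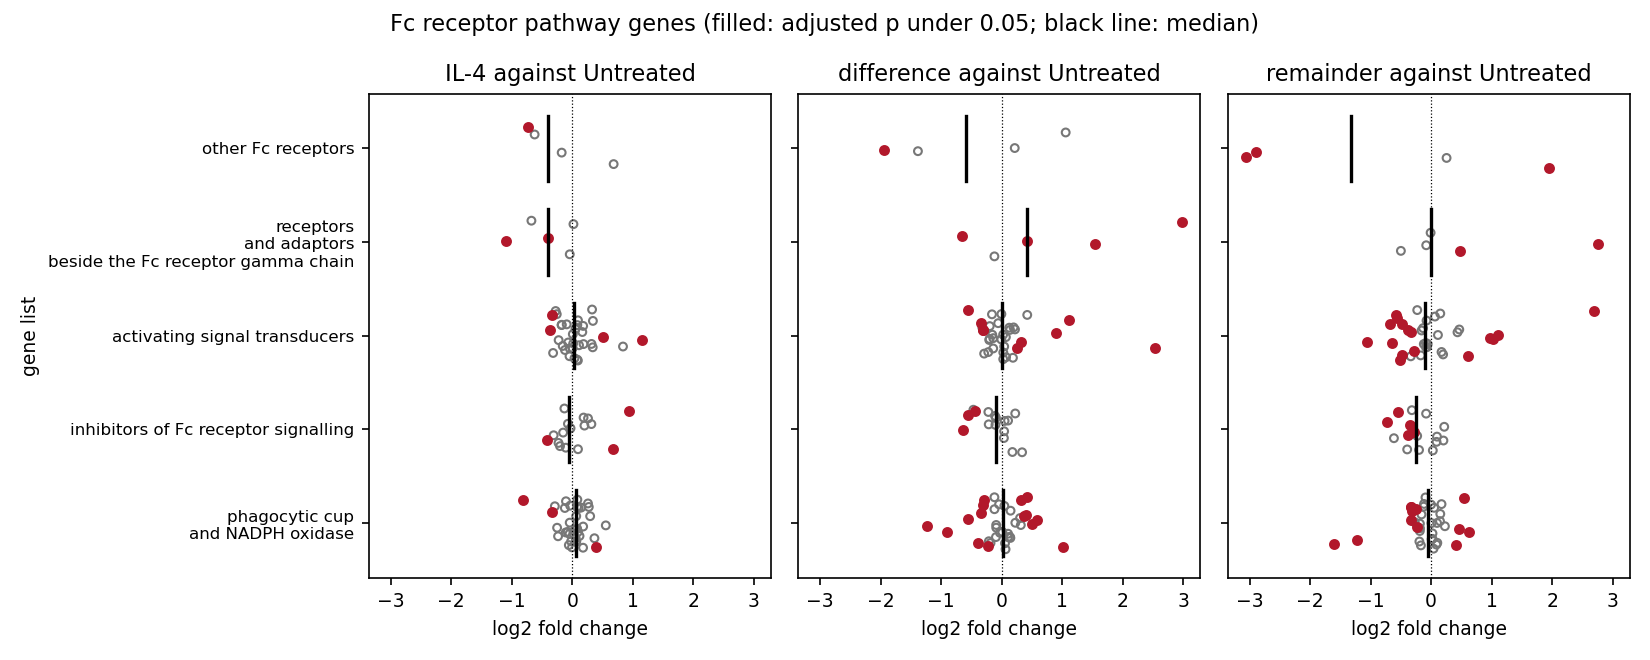
Each point is 1 tested gene of a fixed list (vertical axis), placed by its log2 fold change against untreated cells (horizontal axis) for IL-4, the difference and the remainder, filled where the adjusted p was under 0.05, with a black line at the list's median. The medians of the transducers, the inhibitors and the phagocytic genes lie between -0.26 and 0.05, with called genes on both sides of 0 in most panels. In the panels of the parts *Clec4e*, *Src*, *Fcrl1* and, in the remainder, *Fcrl5* lie far out. With IL-4 *Fyn* (1.15) and *Clec4n* (-1.09) do.

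The IL-4 genes among the treatment checks, *Arg1*, *Retnla*, *Mgl2* and *Chil3*, were all called higher with IL-4. *Mgl2* had 13 to 14 counts in untreated libraries, 165 to 202 with IL-4, 3 to 11 in the difference and 51 to 97 in the remainder. *Arg1* had 19 to 26 counts with IL-4, 97 to 402 in the remainder and at most 2 in untreated and difference libraries. *Chil3* had 193 to 296 counts in untreated libraries, 380 to 471 with IL-4, 222 to 263 in the difference and 278 to 360 in the remainder. *Retnla* had 535 to 781 counts with IL-4 and at most 1 in the other 3 groups. In the remainder 3 of these 4 genes were called higher than in untreated cells, all but *Retnla*, and in the difference 0 of 4. *Arg1* and *Mgl2* were called higher in the remainder than in the difference, while *Retnla* and *Chil3* were not called between the parts. Which part received IL-4 was not tested. Of the Wnt target genes, *Axin2*, *Lef1* and *Nkd1* had too few counts to be tested. *Axin2* had at most 1 count in untreated and IL-4 libraries, 1 to 5 in the difference and 9 to 13 in the remainder. *Lef1* and *Nkd1* had at most 2 in any library.

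Genes with the pattern most like each member were picked by Pearson's r of log2 CPM over the 12 libraries, among tested genes that averaged at least 8 CPM. The libraries fall into 4 groups, so r mostly reads the order of the group means, and no p is given. For *Fcgr2b* these were *Cd74* (r = 0.994), which encodes the MHC class II invariant chain, *Ddhd1* (0.991) and *H2-DMa* (0.984), an MHC class II peptide-loading gene. *Cd74* had 391, 1274, 1845 and 3497 CPM on average in untreated cells, IL-4, the difference and the remainder, the order seen for *Fcgr2b*. For *Fcgr1* they were *Elk3* (0.992), *Aoah* (0.985) and *Cd1d1* (0.976), for *Fcgr3* *Rhoc* (0.952), *Atp6v1b2* (0.948) and *Mxd4* (0.947), and for *Fcgr4* *Ssbp3* (0.969), *St3gal5* (0.950) and *Cd300e* (0.940). The closest to *Fcer1g* were *Ifit3* (0.903), *Trafd1* (0.892) and *Nfu1* (0.891), and to *Fcgrt* *Angptl4* (0.978), *Cebpa* (0.973) and *Cyth4* (0.972).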

How the data were processed

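RNA of 12 BMDM samples, 4 conditions in each of 3 mice, was sequenced as single reads on an Illumina HiSeq. The authors deposited raw counts per gene, 48526 rows with Ensembl identifiers, of which 48058 were paired with a symbol. According to the paper's methods and the submitters' processing notes, reads were checked with FastQC 0.11.7, trimmed with Trimmomatic 0.36, aligned to mm10 with STAR 2.6.0 and counted with HTSeq 0.11.1 on UCSC genes, although the rows carry Ensembl identifiers. Sorting used SAMtools 1.9, and the authors compared groups with DESeq2 1.24.0. Whether strand was used in counting is not given in the sources used here. Of the table, 0 rows name no gene, 0 identifiers repeat and 0 columns were left unused.

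From these counts, the difference and remainder of each mouse were solved as described above. A gene entered the test if 3 or more libraries had 10 or more counts each, which held for 12421 genes. The quasi-likelihood test of edgeR 4.0.16 (R 4.3.3) was fitted once to all 12 libraries with TMM scaling and without a term for the mouse, and a gene was called at a Benjamini-Hochberg adjusted p under 0.05 across all genes tested. SE is the log2 fold change divided by the root of the F statistic, and 95% intervals use the degrees of freedom of the fit and are not adjusted. As alternatives, DESeq2 1.42.0 replaced edgeR, and scaling used DESeq2's size factors or the total count. DESeq2 was given all 48526 genes and its own filter, so the genes tested changed together with the test. The gene filter was set to 1 count in all or to 1 CPM in 3 libraries, the fit was limited to the groups compared, given the mouse as replicate block or run on the deposited columns, calls were made under 0.01 or only past 1 on the log2 scale, and each mouse and each library was left out in turn. The test was also run on counts simulated with the means and spread of these data, and the outcome is not given here. The labels pair samples by mouse. Deviations of same-mouse libraries from their group means correlated between -0.42 and 0.45 in 18 pairs of libraries, 6 of them over 0.1.

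Members and gene lists were chosen with earlier results of these data known. Named genes are the 6 members, *B2m*, *Syk*, *Inpp5d*, *Ptpn6*, of each list and comparison the called genes with the highest and lowest log2 fold change averaging 1 CPM or more in the higher group, of which the text gives a part, and 3 genes per member by correlation. Other marker lists stayed low: in each library T and NK cell, mast cell and erythroid markers summed to at most 0.61 CPM and stromal markers to 4.14 to 28.1. Gene positions and exon lengths came from GENCODE vM21 of the same build, and upstream windows from RefSeq. Protein sequences were not used here.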

Additional observations from a re-analysis of the deposited data

Results flagged for a closer look

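The results given here differ between cells with and without Wnt3a in their response to IL-4 by the interaction test, all of them with the other assignment, which takes the difference as Wnt3a+IL-4. With the first assignment none of them was called by the main edgeR fit, and *Fcgr2b* was called only under the alternatives given above. Among the members these were *Fcgr2b* (-2.53 on the log2 scale) and *Fcgr1* (0.84). Among the genes that work with the receptors they were *Ptpn6* (0.40), *Sla* (0.93), *Cblb* (-1.33), *Fyn* (-2.43), *Prkcb* (1.14), *Marcksl1* (1.19), *Pip5k1c* (-0.71), *Clec4n* (2.15) and *Fcrl1* (1.68). All 4 tested treatment checks, *Arg1*, *Retnla*, *Mgl2* and *Chil3*, were called with a negative interaction. *Arg1* had -13.30, a value with no size of its own, since untreated and difference libraries held at most 2 counts of it. The call of *Ptpn6* was lost with the mouse as replicate block (0.40, edgeR adjusted p = 0.071), without mouse 2 or mouse 3 (edgeR adjusted p = 0.22 and 0.45), and with any 1 of these libraries left out: untreated, IL-4 or difference of mouse 2 or 3, or the remainder of mouse 3 (edgeR adjusted p = 0.056 to 0.094). Those of *Prkcb*, *Pip5k1c* and *Sla* were lost without mouse 3 (1.11, -0.71 and 0.88, edgeR adjusted p = 0.089, 0.15 and 0.059). With the columns as deposited the calls of *Fcgr1*, *Ptpn6*, *Prkcb*, *Sla* and *Arg1* were lost. With 3 samples a group, single samples were not tested as outliers.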

How the results depend on the processing

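Of 1188 member results recomputed under an alternative, none reversed a called direction, and the cause of the changes listed was not tested. The mouse as replicate block changed no member call (*Fcgr2b* in the remainder against untreated cells 3.19, interaction with the first assignment -0.63) and gave 391 called genes with IL-4 against 422 without the block. The columns as deposited gave 708 called genes with IL-4, 0 between the Wnt3a-containing columns, and 142 and 311 for the interaction with the first and other assignment. They moved *Fcgr1* (-0.38) and *Fcgr3* (0.28) past the threshold with IL-4, *Fcer1g* (0.23) and *Fcgr4* (-0.31) past it against IL-4 and the *Fcgr2b* interaction with the first assignment (-1.41), and lost *Fcgr1* (-0.079) and *Fcgr2b* (0.16) between the parts and the other *Fcgr1* interaction (0.46). Total count alone called *Fcgr1* with IL-4 (-0.43), *Fcgr3* in the difference (-0.25) and remainder (-0.18), and *Fcgr4* in the difference against IL-4 (-0.29). With all genes of at least 1 count, 812 genes were called with IL-4, 1454 between the parts, and 575 and 1505 for the interactions, together with *Fcgr1* with IL-4 (-0.38) and the first *Fcgr2b* interaction (-0.62). Only the groups compared left 422 between the parts. DESeq2 called *Fcgr1* (-0.37) and *Fcgr3* (0.29) with IL-4, 165 genes and *Fcgr2b* (-0.64) for the first interaction, and *Fcgr3* (-0.37) for the other. An adjusted p under 0.01 left 227 genes with IL-4, 1687 in the difference, 1960 in the remainder, 279 between the parts, 1575 and 1659 for remainder and difference against IL-4, and 0 and 472 for the interactions, without *Fcgr1* between the parts (-0.47) and *Fcer1g* in the difference against IL-4 (0.28). A log2 fold change of at least 1 left 133, 842, 917, 184, 733 and 835 genes in the same order and 423 for the other interaction. It dropped *Fcgr4* (-0.48) and *Fcgrt* (-0.72) in the difference, *Fcgr1* (0.60), *Fcgr4* (-0.64) and *Fcgrt* (-0.66) in the remainder, *Fcgr1* (-0.47) and *Fcgr2b* (0.95) between the parts, *Fcgr1* (0.98), *Fcgr3* (-0.36), *Fcgr4* (-0.42) and *Fcgrt* (-0.87) in the remainder against IL-4, *Fcgr2b* (0.66), *Fcgr3* (-0.45), *Fcer1g* (0.28) and *Fcgrt* (-0.92) in the difference against IL-4, and the other *Fcgr1* interaction (0.84). With a mouse or a library left out, called genes ran from 77 to 532 with IL-4, 1220 to 3188 in the difference, 1375 to 3807 in the remainder, 97 to 1188 between the parts, 1043 to 3052 and 1208 to 2805 for remainder and difference against IL-4, and 0 to 43 and 265 to 1459 for the interactions. Where such an omission changed a member call, log2 fold changes ran from -0.55 to -0.27 (*Fcgr1*) and 0.22 to 0.35 (*Fcgr3*) with IL-4, -0.82 to -0.55 (*Fcgrt*) in the remainder, -0.52 to -0.43 (*Fcgr1*) between the parts, -0.39 to -0.30 (*Fcgr3*) and -0.50 to -0.25 (*Fcgr4*) in the remainder against IL-4, 0.24 to 0.36 (*Fcer1g*) and -0.34 to -0.14 (*Fcgr4*) in the difference against IL-4, -0.71 to -0.53 (*Fcgr2b*) for the first interaction, and 0.74 to 0.99 (*Fcgr1*) and -0.46 to -0.28 (*Fcgr3*) for the other. An omission that leaves 2 mice per group, or 1 group with 2 libraries, lowers the number of samples.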
